A study of Homo sapiens with 7 samples.

Results

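The genes described are the vitamin D receptor and the proteins it works with, 10 of the 33694 genes in the deposited table. They are the receptor VDR, its partners RXRA and RXRB, the activating enzymes CYP2R1 and CYP27B1, the inactivating enzyme CYP24A1, the binding protein PDIA3 and the coactivators NCOA1, NCOA3 and MED1. They were taken by symbol from a list proposed with the fold changes of this comparison in view. Their differences between the groups are therefore given as a description, with no p-value.

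The libraries came from HK-2, immortalised human cells of the renal proximal tubule, grown in medium with serum and with no vitamin D compound named among its additions. Cells received 50 nM of an siRNA against GLUT2, the glucose transporter whose gene is SLC2A2 (siGLUT2, 3 libraries, replicates 2 to 4, labelled as a GLUT2 knockdown), or 50 nM of siRNA with a scrambled sequence (scr, 4 libraries, replicates 1 to 4, labelled wild type). RNA was taken 96 h after transfection, and the comparison is of cells given the GLUT2 siRNA with cells given the scrambled siRNA. The labels call the libraries biological replicates of 1 cell line, name no siRNA sequence and give 1 GLUT2 siRNA treatment only, so p-values measure the spread between these samples.

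Vitamin D is activated in steps, by a hydroxylation in the liver and other tissues, of which CYP2R1 is the main enzyme, and by CYP27B1, which is found above all in the renal proximal tubule and makes the active hormone calcitriol. CYP24A1 breaks down calcitriol and its precursor. Calcitriol binds VDR, a nuclear receptor that pairs with a retinoid X receptor on DNA and recruits coactivators, and the CYP24A1 gene is the textbook example of a gene that this complex switches on.

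Total counts ran between 5881366 and 6914302 in siGLUT2 libraries and between 5654957 and 8455963 in scr libraries. Genes with at least 1 count numbered 13433 to 13891 in siGLUT2 and 14844 to 15036 in scr libraries, and mitochondrially encoded genes took 7.04% to 7.56% and 4.91% to 5.53% of counts. Counts of siGLUT2 libraries differed more from each other (chi-square per degree of freedom of library pairs 9.9 to 16.9) than those of scr libraries (4.73 to 7.85). The part of these library differences in the results was not tested. SLC2A2 was counted 0 times in each siGLUT2 library, against 13, 13, 7 and 17 times in scr replicates 1 to 4. The pooled scr level was 1.72 CPM (exact Poisson 95% interval 1.28 to 2.27), and 3 counts over the siGLUT2 group, about the upper 95% bound on a count of 0, are 0.156 CPM. Set against the low end of the scr interval, SLC2A2 was 8.18-fold lower in siGLUT2 by these bounds. The scr interval is bounded on both sides and the 3 counts on the upper side only, so this fold is not a strict minimum. The adjusted p of edgeR's quasi-likelihood test was 0.0085, and 0.0538 without scr replicate 4, and the gene passed the low-count filter through scr libraries alone. Such intervals and floors cover counting error only.

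Proximal tubule markers were present in part. Of 22 listed, 10 reached 1 CPM on average, among them the transcription factor PAX8, the cadherin CDH6 and the brush border enzyme GGT1. The endocytic receptor megalin (LRP2), which brings filtered vitamin D into proximal tubule cells, was at 0 in all 7 libraries, and its partner cubilin (CUBN) had 1 count in 1 scr library. The water channel AQP1 had 8 counts in siGLUT2 replicate 2 and none elsewhere, and the phosphate transporter SLC34A1 had at most 4 counts in any library. The summed level of the list was 1408 to 1587 CPM in siGLUT2 and 1880.4 to 1987 CPM in scr libraries. That sum follows abundant genes, and the list did not move in 1 direction. The keratins KRT8 (272 CPM in siGLUT2 and 446 CPM in scr) and KRT18 (248 and 421 CPM) were lower, as was CDH6 (208 and 319.9 CPM). GGT1 (56.5 and 38 CPM) and the peptidase MME (38.3 and 22.7 CPM) were higher. Of 9 markers of macrophages and leukocytes, of which macrophages can express CYP27B1, only CD68 averaged at least 1 CPM over the 7 libraries (25.9 CPM in siGLUT2 and 15 CPM in scr), and PTPRC, CD163 and LYZ were at 0 in every library.

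Levels are given in CPM, counts scaled to the library total and its TMM factor, for siGLUT2 replicates 2, 3 and 4 and for scr replicates 1, 2, 3 and 4. Fold changes are edgeR log2 estimates of siGLUT2 over scr with their standard error (SE). Of the 10 genes 9 passed the low-count filter, CYP27B1 being the exception. Across all 12404 tested genes, 28.3% passed an adjusted p of 0.05 (Benjamini-Hochberg), 13.9% higher and 14.4% lower in siGLUT2, and for 35.1% the groups' CPM did not overlap. Of the 9 tested vitamin D genes, 4 were past that threshold, VDR and NCOA3 higher and CYP24A1 and MED1 lower, and the same 4 had no overlap. Since the genes were named with these values known, nothing is read from that count, nor from the call of any single gene among them. Their median log2 fold change was 0.05, beside -0.0029 over all tested genes.

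VDR, the receptor of calcitriol (ENSG00000111424, GRCh38 chromosome 12, 47841537 to 47943048, minus strand), was at 19.3, 22.8 and 16.3 CPM in siGLUT2 libraries, against 1.54, 4.08, 2.15 and 3.17 CPM in scr libraries. Every siGLUT2 library was above every scr library, and the counts behind these levels were 113, 158 and 104 in siGLUT2, against 11, 34, 17 and 18 in scr. VDR averaged 19.4 ± 3.26 CPM in siGLUT2 (SD, n = 3) and 2.74 ± 1.12 CPM in scr libraries (SD, n = 4), a log2 fold change of 2.82 ± 0.35 (SE), or 7.06-fold. It was the 28th highest fold change of the 12404. In bulk RNA, more cells with the transcript and more transcript per cell cannot be told apart.

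The retinoid X receptors, which bind DNA together with VDR and with many other nuclear receptors, had overlapping levels in the groups. RXRA (ENSG00000186350, chromosome 9, 134317098 to 134440585, plus strand) was at 47.2, 52.5 and 56.9 CPM in siGLUT2, against 60.3, 50.1, 60.6 and 66.7 CPM in scr libraries. These ranges overlapped, and the log2 fold change was -0.18 ± 0.15 (SE).

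RXRB (ENSG00000204231, chromosome 6, 33193588 to 33200688, minus strand) was at 20.1, 40.9 and 46.8 CPM in siGLUT2, against 46.1, 50.7, 47.9 and 43.6 CPM in scr libraries. Only siGLUT2 replicate 2 lay far below the scr libraries. The log2 fold change of -0.39 ± 0.21 (SE) became -0.11 without that library, and -0.62 without siGLUT2 replicate 4. RXRB overlaps SLC39A7 on the opposite strand, and with an unknown strand setting their reads cannot be told apart where they overlap. Measured within each library, the difference of log2 CPM of VDR minus RXRA was -1.28, -1.19 and -1.79 in siGLUT2, against -5.05, -3.53, -4.64 and -4.27 in scr libraries, so the receptor was higher relative to its partner in each siGLUT2 library.

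**Figure D1:**
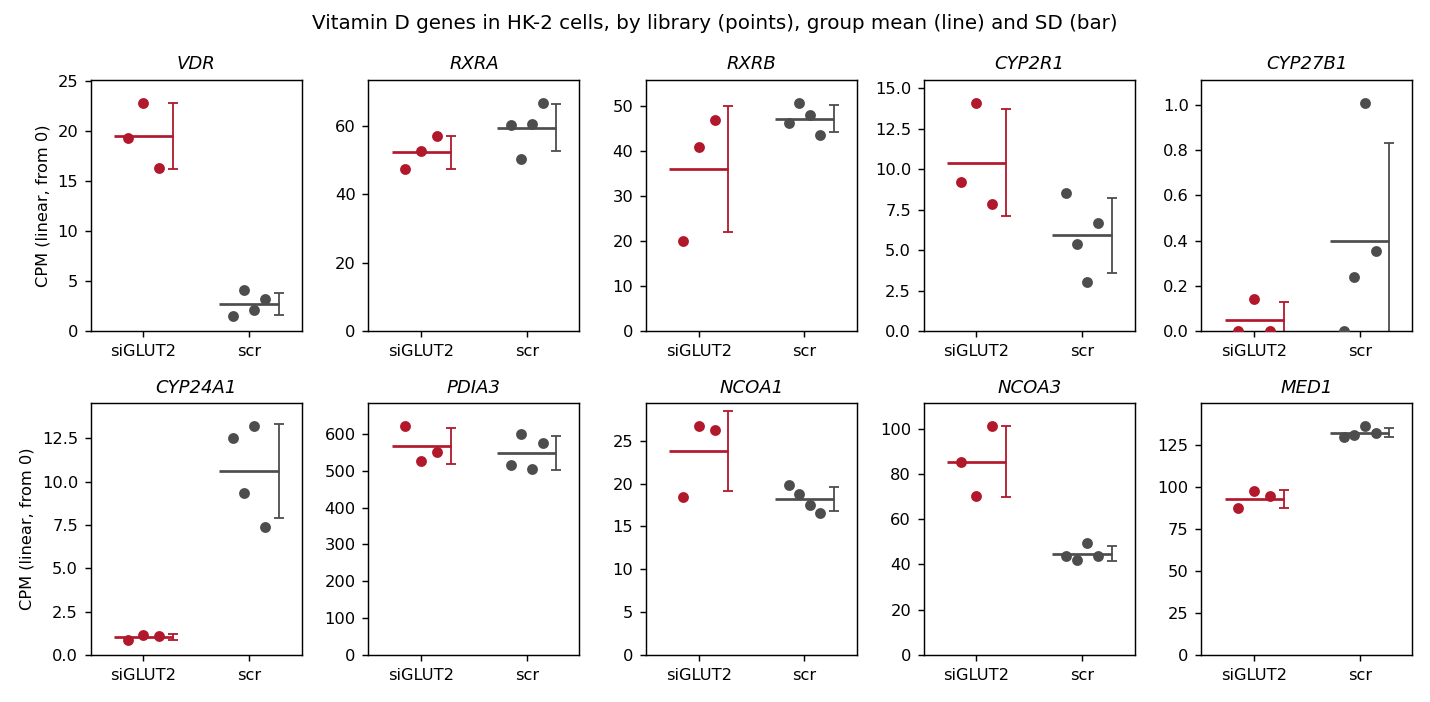
CPM of each of the 10 genes (linear axes from 0), with a point per library, the group mean as a line and the SD as a bar, siGLUT2 (n = 3) left and scr (n = 4) right; SD bars below 0 are not drawn. VDR and NCOA3 are higher and CYP24A1 and MED1 lower in siGLUT2 with no overlap, and RXRB has 1 siGLUT2 library at 20.1 CPM far below the rest.

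CYP24A1, the hydroxylase that inactivates calcitriol (ENSG00000019186, chromosome 20, 54153449 to 54173973, minus strand), went the opposite way to its receptor. It was at 0.853, 1.15 and 1.09 CPM in siGLUT2, against 12.5, 9.35, 13.2 and 7.41 CPM in scr libraries. All siGLUT2 libraries were far below all scr libraries, with 5, 8 and 7 counts in siGLUT2, against 89, 78, 104 and 42 in scr. The means were 1.03 ± 0.159 CPM in siGLUT2 (SD, n = 3) and 10.6 ± 2.69 CPM in scr libraries (SD, n = 4). The log2 fold change was -3.33 ± 0.46 (SE), 10.1-fold lower in siGLUT2, and the 39th lowest of the 12404. No siGLUT2 library reached the 1.45 CPM that the low-count filter asks for, so CYP24A1 entered the fit through scr libraries alone. No other annotated gene overlaps CYP24A1.

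CYP2R1, which makes the circulating precursor of calcitriol (ENSG00000186104, chromosome 11, 14877440 to 14892252, minus strand), was at 9.21, 14.1 and 7.82 CPM in siGLUT2, against 8.55, 5.4, 3.04 and 6.7 CPM in scr libraries. The ranges overlapped, since scr replicate 1 was above siGLUT2 replicate 4. The means of 10.4 ± 3.31 CPM in siGLUT2 (SD, n = 3) and 5.92 ± 2.32 CPM in scr libraries (SD, n = 4) differed by a log2 fold change of 0.82 ± 0.38 (SE), which became 0.53 without siGLUT2 replicate 3.

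CYP27B1, the renal enzyme that makes calcitriol (ENSG00000111012, chromosome 12, 57762334 to 57768986, minus strand), was near the limit of detection. It was counted 0, 1 and 0 times in siGLUT2, against 0, 2, 8 and 2 times in scr libraries, and 8 of the 12 scr counts were in replicate 3. For the libraries at 0, 3 counts, about the upper 95% bound on a count of 0, are 0.42 CPM in scr replicate 1. They are 0.512 and 0.469 CPM in siGLUT2 replicates 2 and 4. The pooled ratio of siGLUT2 over scr was 0.126, with an exact 95% interval of 0.00295 to 0.852 that covers counting error only, not the spread between libraries. CYP27B1 overlaps METTL1 on the same strand, and how reads in that overlap were counted is not given in the sources used here.

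The receptor and the enzymes can be set against each other within each library, which leaves library scaling out. The difference of log2 CPM, VDR minus CYP24A1, was 4.10, 4.00 and 3.58 in siGLUT2, against -2.8, -1.14, -2.46 and -1.15 in scr libraries. Its mean was 3.89 ± 0.27 in siGLUT2 (SD, n = 3) and -1.89 ± 0.87 in scr libraries (SD, n = 4), a shift of 5.78 on the log2 scale, or 55-fold. Without any 1 library in turn this shift was between 5.47 and 6.04. The log2 CPM includes a prior count of 2. With only 5, 8 and 7 CYP24A1 counts in siGLUT2 libraries, that prior makes the shifts against CYP24A1 smaller. CYP2R1 minus CYP24A1 was 3.06, 3.32 and 2.55 in siGLUT2, against -0.53, -0.76, -2.02 and -0.14 in scr libraries, and VDR minus CYP2R1 was 1.04, 0.68 and 1.03 in siGLUT2, against -2.27, -0.38, -0.45 and -1.01 in scr libraries. In each of these pairs every siGLUT2 library was above every scr library. VDR and CYP24A1 already separated the groups in opposite directions, so the separation of VDR minus CYP24A1 was fixed in advance. Each pair with CYP2R1, whose own levels overlapped, includes VDR or CYP24A1. The separation of the pairs is therefore no result beyond that of the single genes. Differences with CYP27B1 would rest on the prior count added to its zeros and are not given.

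**Figure D2:**
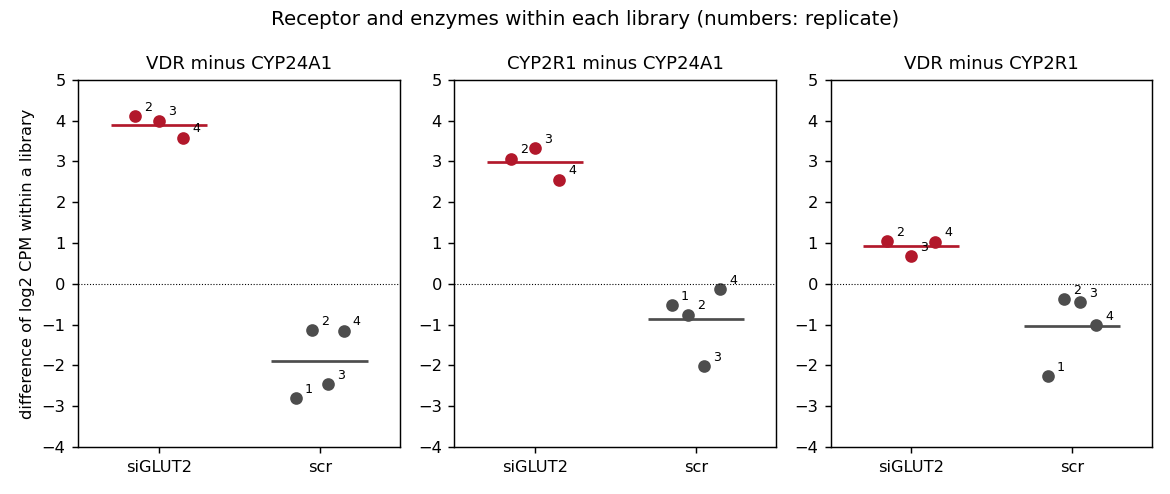
Difference of log2 CPM between a pair of genes within each library (y axis), a point per library with its replicate number and the group mean as a line, siGLUT2 left and scr right. VDR minus CYP24A1 lies between 3.58 and 4.10 in siGLUT2, and between -2.8 and -1.14 in scr libraries.

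PDIA3 is a disulfide isomerase of the endoplasmic reticulum that folds glycoproteins and has also been described as a membrane-associated binder of calcitriol (ENSG00000167004, chromosome 15, 43746392 to 43773279, plus strand). It was at 621, 527 and 552 CPM in siGLUT2, against 515, 599, 504 and 575 CPM in scr libraries. The ranges overlapped almost entirely, with a log2 fold change of 0.05 ± 0.09 (SE).

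Among the coactivators, NCOA3 was higher and MED1 lower in siGLUT2. NCOA3, a p160 coactivator that joins the ligand-bound receptor (ENSG00000124151, chromosome 20, 47501902 to 47656877, plus strand), was at 85.3, 70.0 and 101 CPM in siGLUT2, against 43.6, 42.1, 49.6 and 43.6 CPM in scr libraries. Every siGLUT2 library was above every scr library, and the log2 fold change was 0.93 ± 0.14 (SE), or 1.91-fold. NCOA1, of the same p160 family (ENSG00000084676, chromosome 2, 24491914 to 24770702, plus strand), was at 18.4, 26.7 and 26.3 CPM in siGLUT2, against 19.9, 18.8, 17.5 and 16.6 CPM in scr libraries. Replicates 3 and 4 of siGLUT2 were above all scr libraries, but replicate 2 lay among them, and the log2 fold change was 0.39 ± 0.22 (SE).

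MED1, the Mediator subunit through which VDR and other nuclear receptors contact the transcription machinery (ENSG00000125686, chromosome 17, 39404285 to 39451286, minus strand), was at 87.1, 97.6 and 94.3 CPM in siGLUT2, against 129.6, 131, 136 and 132 CPM in scr libraries. It was lower in every siGLUT2 library than in every scr library. The log2 fold change was -0.51 ± 0.11 (SE), 1.42-fold lower in siGLUT2, and this was the tightest of the 10 genes, with an SD of log2 CPM of 0.08 in siGLUT2 and 0.03 in scr libraries.

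**Figure D3:**
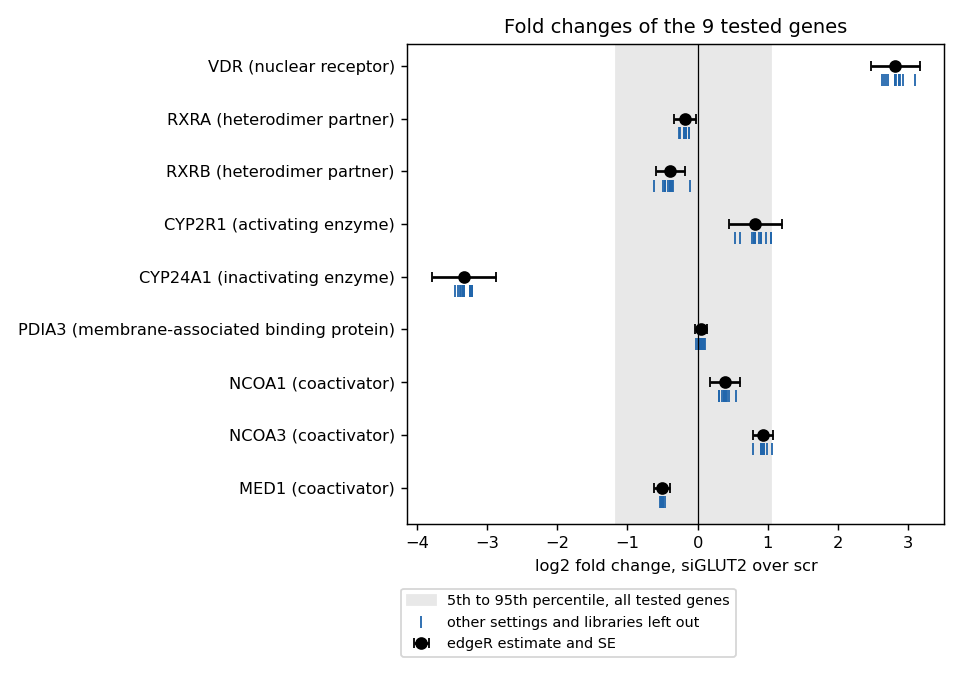
Log2 fold changes of siGLUT2 over scr of the 9 tested genes in order of role (black points with SE), the values under 15 other fits, 7 of them with 1 library left out (blue ticks), and the 5th to 95th percentile of all 12404 tested genes (grey, -1.17 to 1.05). VDR at 2.82 and CYP24A1 at -3.33 lie outside the grey band under every setting, and the other 7 genes lie inside it in the main fit.

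The 3' UTR of CYP24A1 holds a word that went with lower levels in siGLUT2 across genes. Among the 16022 words of 7 bases found in 100 or more of 10101 genes (longest 3' UTR of each gene), GACCTTA had the lowest mean log2 fold change, -0.23 in the 802 genes (7.94%) that hold it and 0.02 in the rest. Ranks 2 to 4 went to other words, GACCGCG (-0.22 in 137 genes), CGCGGAC (-0.18 in 106 genes) and GGCGAAC (-0.17 in 123 genes), whose sites were not looked for. ACCTTAA, which overlaps GACCTTA by all but the outer base, ranked 5 of these words, with -0.14 in 1244 genes (12.3%) and 0.02 in the rest. It was taken as the second word for this overlap. GACCTTA and ACCTTAA were picked from the same fold changes, so what they show here is a description. Either of these words stood in 16.6% of all scanned genes. The share was 23.7% of those past the threshold and lower, 12.1% of those higher and 15.9% of those not past it. No allowance was made for the length of the 3' UTR. Either word was also found in 4 of the 10 vitamin D genes, and nothing is read from that count. Their sites show which word each gene holds. They are given from the GENCODE 29 transcripts with up to 10 bases on each side, the matched letters in capitals:
CYP24A1: tttgttagagGACCTTAAaattgtttat
RXRB: catccgcaaaGACCTTAcatactcttg
MED1: ttttctaagcACCTTAAgggccttgtt
NCOA1: tcccaactgcACCTTAAaatatgcatg
On GRCh38 these sites are at chr20:54154175-54154202, chr6:33197860-33197886 and chr17:39434275-39434301 on the minus strand and at chr2:24770401-24770427 on the plus strand. CYP24A1 was the only one of the 10 genes with both words, as 1 overlapping run that starts at base 580 of its 1323-base 3' UTR. MED1, also lower in siGLUT2, holds ACCTTAA at base 31 of 4080, RXRB holds GACCTTA with a log2 fold change of -0.39 ± 0.21 (SE), and NCOA1 holds ACCTTAA with one of 0.39 ± 0.22 (SE). No match was found in the 3' UTRs of VDR, NCOA3, RXRA, CYP2R1, CYP27B1 or PDIA3. Whether the word has a part in the level of CYP24A1 was not tested.

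Other genes of the pathway were counted in 6 lists with edgeR's quasi-likelihood test and Benjamini-Hochberg adjustment over all tested genes. These lists were drawn up with earlier results of these data known. The counts stand beside the 28.3% of all tested genes that passed, 13.9% higher and 14.4% lower.

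Of 48 genes known as VDR targets in other cells, 29 were tested, of which 12 rose, 3 fell and 14 did not pass (51.7% passed), with a median log2 fold change of 0.24, beside -0.0029 over all tested genes. DUSP10, a phosphatase of p38 and JNK that calcitriol induces in prostate cells, rose to 25.9, 25.9 and 33.5 CPM in siGLUT2, against 3.5, 3.72, 5.19 and 4.41 CPM in scr libraries (log2 fold change 2.75 ± 0.27, adjusted p = 8.75e-08). CLDN12, a claudin that calcitriol induces in gut epithelium, rose to 47.7 ± 5.13 CPM in siGLUT2 (SD, n = 3), against 19.3 ± 3.39 CPM in scr (SD, n = 4; edgeR adjusted p = 1.42e-05).

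The list was mixed by known direction. CCND1, cyclin D1, which calcitriol lowers in many epithelial lines, rose to 108 ± 6.88 CPM in siGLUT2 (SD, n = 3), against 31.4 ± 9.69 CPM in scr (SD, n = 4; edgeR adjusted p = 1.25e-07). IGFBP3, an IGF-binding protein that calcitriol induces, fell to 24.6, 30.4 and 26.1 CPM in siGLUT2, against 73.7, 57.8, 77.3 and 65.3 CPM in scr libraries (log2 fold change -1.34 ± 0.16, adjusted p = 1.59e-06). Chosen after their values were seen, the calcium pump ATP2B1 was at 238 CPM in siGLUT2 and 150.2 CPM in scr libraries (log2 fold change 0.66 ± 0.10, edgeR adjusted p = 1.88e-05) and the calcium channel subunit ORAI1 at 43.7 and 29.6 CPM (0.56 ± 0.17, adjusted p = 0.0168). The epithelial calcium channels TRPV5 and TRPV6, the calbindins CALB1 and S100G and the antimicrobial peptide gene CAMP, all classical targets, were at 0 in every library. With an adjusted p of 0.01, 7 of the list rose and 2 fell. Leaving out each library in turn, 8 to 11 rose and 2 to 3 fell. With the replicate number as a block 9 rose and 3 fell.

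Of 31 tested coregulators of VDR, 3 rose, 6 fell and 22 did not pass, with a median of -0.09. The 29% that passed is close to the share of all tested genes, so the count says nothing particular to coregulators. SUPT16H, a subunit of the FACT histone chaperone that was also described in the VDR-binding WINAC complex, fell to 346 ± 20.8 CPM in siGLUT2 (SD, n = 3), against 619 ± 38.6 CPM in scr (SD, n = 4; edgeR adjusted p = 1.14e-07). The chromatin remodelling subunit SMARCD1 fell (-0.59 ± 0.14, adjusted p = 0.0031), and TBL1X, a subunit of the NCOR corepressor complexes, rose (0.42 ± 0.10, adjusted p = 0.00205). NCOR1, a corepressor of nuclear receptors, was named after its values were seen and was at 146 CPM in siGLUT2 and 109 CPM in scr libraries (0.42 ± 0.11, edgeR adjusted p = 0.00517). HDAC3 and TBL1XR1 of the same list, also named after their values were seen, were lower in siGLUT2. HDAC3 was at 81.4 and 103 CPM (-0.34 ± 0.12, adjusted p = 0.0299). TBL1XR1 was at 241 and 279 CPM and did not pass (-0.21 ± 0.08, adjusted p = 0.0641). The corepressor genes of the list thus did not all move the same way. Without siGLUT2 replicate 4 the number that rose was 5.

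In the list of regulators of VDR and of the renal enzymes, 5 of 18 tested genes rose and 3 fell (44.4% passed), with a median of 0.03. The 5 include NR4A2, which passed the low-count filter through siGLUT2 libraries alone. FGFR3, a receptor that can bind FGF23, the phosphate hormone that represses CYP27B1 and induces CYP24A1 in kidney, fell to 2.05, 4.9 and 4.69 CPM in siGLUT2, against 19.5, 18.1, 19.5 and 19.8 CPM in scr libraries (adjusted p = 1.12e-05). Klotho (KL), the co-receptor of FGF23, was at 7.95 CPM in siGLUT2 and 7.65 CPM in scr libraries, and FGFR1 at 154 and 170 CPM, and neither passed (adjusted p = 0.916 and 0.278). The repressor ZEB2 rose (1.91 ± 0.31, adjusted p = 6.9e-05), ETS1 rose (0.47 ± 0.11, adjusted p = 0.00203) and the immediate early factor EGR1 fell (-1.14 ± 0.19, adjusted p = 7.76e-05). SNAI1, a zinc finger factor known to repress VDR, was at 16.6 CPM in siGLUT2 and 8.8 CPM in scr libraries and did not pass (0.91 ± 0.36, edgeR adjusted p = 0.0616). KL, FGFR1 and SNAI1 were picked after their values were seen. Without siGLUT2 replicate 3 the number that fell was 5.

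Of 20 genes of vitamin D transport and other metabolism 9 were tested and 0 rose by edgeR, DESeq2 or limma-voom (0 at an unadjusted p below 0.05 by edgeR). The only fall was in DHCR7, which draws on the precursor that skin turns into vitamin D, at 86.6 ± 28.1 CPM in siGLUT2 (SD, n = 3), against 122 ± 10.4 CPM in scr (SD, n = 4; edgeR adjusted p = 0.0255), and this call was lost without scr replicate 1, 3 or 4 or siGLUT2 replicate 2. DHCR7 also belongs to cholesterol synthesis. The highest levels of the list were those of HSPA8, a chaperone that binds vitamin D metabolites in the cell, at 238 ± 25.3 CPM in siGLUT2 (SD, n = 3) and 221 ± 26.5 CPM in scr (SD, n = 4), and of the megalin chaperone LRPAP1, at 115 ± 5.15 and 122 ± 13.9 CPM. Neither passed (edgeR adjusted p = 0.48 and 0.624). CYP27A1, another enzyme that hydroxylates vitamin D precursors, named after its values were seen, was at 5.58 CPM in siGLUT2 and 8.01 CPM in scr libraries (adjusted p = 0.386).

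Among 10 tested receptors that pair with RXR, 2 rose and 1 fell, with a median of 0.02, and the 30% that passed is close to the share of all tested genes. PPARG, the fatty acid receptor, rose to 40.9, 40.3 and 36.3 CPM in siGLUT2, against 12.8, 17.5, 11.9 and 13.6 CPM in scr libraries (log2 fold change 1.49 ± 0.20, adjusted p = 7.09e-06), and the thyroid hormone receptor THRB fell (-0.82 ± 0.19, adjusted p = 0.00235). The other gene counted as risen was NR4A2, at 4.03 CPM in siGLUT2 and 0.238 CPM in scr libraries, below the level set for naming and added after its values were seen. It was at or above the 1.45 CPM of the low-count filter in 3 siGLUT2 and 0 scr libraries, so it was tested only because it was high in siGLUT2, and its count is no support for a rise. With the replicate number as a block, 1 of the 10 rose. The other 7 receptors tested, among them PPARA, PPARD, RARA, RARG and THRA, did not pass.

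Around PDIA3, 4 of 15 glycoprotein folding genes rose and 1 fell (33.3% passed), with a median of 0.17. Calnexin (CANX), which works together with PDIA3 on glycoproteins, fell to 449, 386 and 383 CPM in siGLUT2, against 681, 665, 658 and 656 CPM in scr libraries (log2 fold change -0.71 ± 0.08, adjusted p = 8.74e-07). ERP29 rose (0.44 ± 0.09, adjusted p = 0.000466), as did the isomerases PDIA4 (0.31 ± 0.09, adjusted p = 0.011) and PDIA6 (0.22 ± 0.07, adjusted p = 0.0244). The number that rose was 2 without scr replicate 1 or without siGLUT2 replicate 3 or 4, and 1 with the replicate number as a block, where the adjusted p was 0.0615 for PDIA4 and 0.0754 for PDIA6. Calreticulin (CALR), the soluble counterpart of calnexin, picked after its values were seen, did not pass (0.14 ± 0.07, adjusted p = 0.162).

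**Figure D4:**
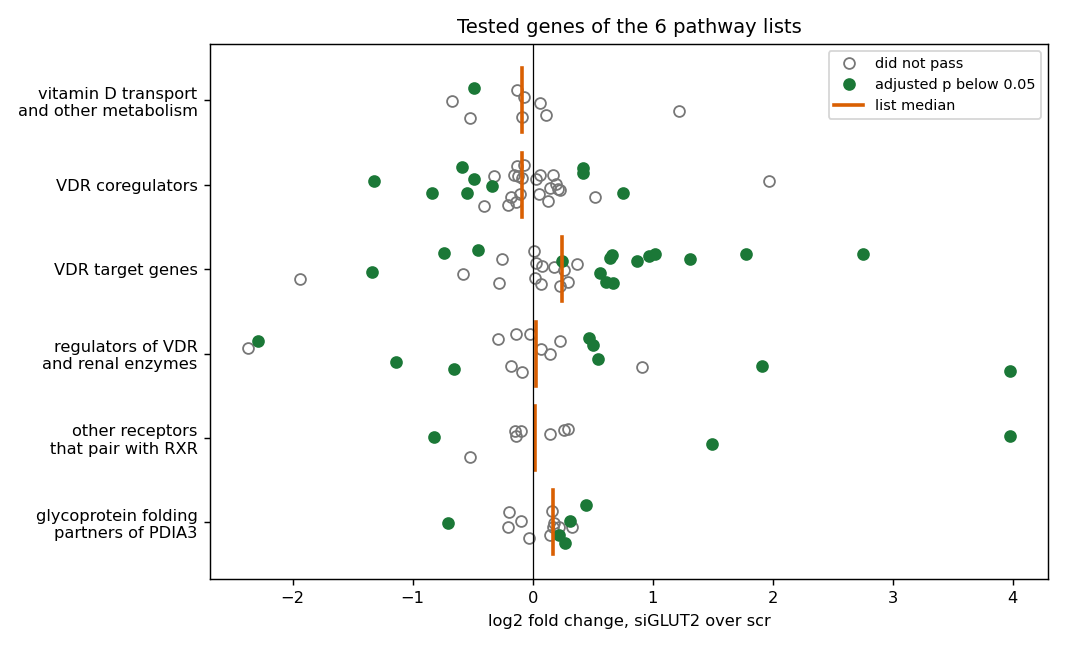
Log2 fold change of siGLUT2 over scr for each tested gene of the 6 lists (1 row a list), filled where the edgeR adjusted p was below 0.05 and open where it was not, with the list median as an orange line. In the VDR target list 12 filled points lie above 0 and 3 below, and its median is 0.24.

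Of the 40 genes of these lists that passed, 4 of 25 that rose and 5 of 15 that fell held GACCTTA or ACCTTAA in the 3' UTR, as did 6 of 68 that did not pass. Those that rose were CLDN12, DUSP10, STS and ZEB1, and those that fell included CANX, MED13, SP1 and THRB. Across all scanned genes the share with either word was 16.6%. Both words were chosen for low fold changes in this same comparison, which favours carriers among genes that fell. Nothing is read from these counts.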

How the data were processed

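The authors deposited raw counts per Ensembl gene for 7 libraries, made from 125 ng of total RNA by a Digital mRNA-seq service, per the labels' protocols. The submitters' processing notes list STAR, HTSeq, edgeR and hg38. Versions, annotation, strand setting and use of molecular identifiers: not given in the sources used here. The vitamin D genes, lists and words were chosen with earlier results of these data known. Symbols were matched by Ensembl ID (32807 of 33694), and positions and 3' UTRs came from GENCODE 29 (GRCh38).

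All 7 libraries were fitted with edgeR 4.0.16 in R 4.3.3 (filterByExpr with a minimum count of 10 and a total of 15, TMM, robust dispersions, glmQLFTest, Benjamini-Hochberg). SE is the fold change over the root of the F statistic. Log2 CPM used a prior count of 2. A pair of genes overlaps where GENCODE spans meet. The word scan used 3' UTRs of at least 50 bases, genes of at least 5 CPM, and Python 3.11.15. From each list up to 4 genes past the threshold with at least 5 CPM were named by adjusted p, or the 2 highest where fewer than 2 passed, and some genes that meet this rule are not reported here. Scripts were tested on simulated data. Alternatives were DESeq2 1.42.0, limma-voom 3.58.1 with and without group weights, other scalings and filters, a replicate block, an adjusted p of 0.01 and each library left out.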

Additional observations from a re-analysis of the deposited data

Results flagged for a closer look

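In 35 sets of 4 scr values checked for a library far from the rest, 2 stood out, where chance flags about 1 in 20. FGFR3 was at 18.1 CPM in scr replicate 2, against 19.5 to 19.8 CPM in the other scr libraries. ETS1 was at 113 CPM in scr replicate 3, against 101 to 102 CPM in the others. None of the 10 vitamin D genes was flagged in the scr libraries, and groups of 3 were not checked.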

How the results depend on the processing

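The log2 fold changes of the 9 tested vitamin D genes moved by less than the SD of log2 CPM pooled over both groups under all 15 other fits. The largest moves of RXRB, NCOA1, NCOA3 and MED1 were above the SD of the scr libraries alone (0.09, 0.11, 0.10 and 0.03), and that of VDR was above the SD of the siGLUT2 libraries alone (0.24). VDR stayed between 2.63 and 3.10, CYP24A1 between -3.46 and -3.21, NCOA3 between 0.79 and 1.06 and MED1 between -0.54 and -0.46. At an adjusted p of 0.01 the genes called were 2264 (1097 higher, 1167 lower), VDR targets that rose 7, folding partners that rose 1 and transport genes that fell 0. Among receptors that pair with RXR 1 rose with a mean of at least 5 CPM required. Equal replicate numbers did not pair the libraries (correlations of deviations 0.01, 0.02 and 0.00). With the replicate block 2649 genes were called, 1 folding partner and 1 receptor that pairs with RXR rose, and the SLC2A2 adjusted p was 0.0577.

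Leaving out each library gave ranges of 0 to 2 transport genes that fell, 2 to 5 coregulators that rose, 3 to 5 regulators that fell, 2 to 6 folding partners that rose and 1 to 2 that fell, and an SLC2A2 adjusted p of 0.0121 to 0.0538. The causes were not tested. Depth limits CYP27B1, with 13 counts in all.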

Other observations

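Over the 7 libraries, the genes whose log2 CPM was most like that of VDR were SPRY2, an inhibitor of receptor tyrosine kinase signalling, GMFB and CORO1C, each with a Pearson r of 0.993. SPRY2 was at 27.4 ± 1.29 CPM in siGLUT2 (SD, n = 3) and 8.94 ± 1.83 CPM in scr libraries (SD, n = 4). Most like CYP24A1 were PLEKHA2, MRPL28 and IMPA2 (r = 0.996, 0.995 and 0.995), with PLEKHA2 at 36.2 ± 4.29 CPM in siGLUT2 (SD, n = 3) and 145 ± 21.7 CPM in scr libraries (SD, n = 4). The libraries form 2 groups and share their depth, and r was above 0.9 for 648 and 807 of 10362 genes, so these values describe mostly the difference between the groups.

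Among proximal tubule markers tested with edgeR, 2 of 10 rose and 3 fell (50% passed, beside 28.3% of all tested genes). The peptidases GGT1 (0.57 ± 0.15, adjusted p = 0.0074) and MME (0.75 ± 0.20, adjusted p = 0.00626) rose, and the keratins KRT8 (-0.71 ± 0.13, adjusted p = 0.000217) and KRT18 (-0.76 ± 0.08, adjusted p = 5.33e-07) and CDH6 (-0.62 ± 0.09, adjusted p = 1.63e-05) fell, so the list did not move in 1 direction. The summed level of 10 fibroblast and endothelial markers was 15.1 to 21.4 CPM in siGLUT2 and 8.97 to 13.2 CPM in scr libraries, with 6 of them at 0 throughout. That of 9 keratinocyte and squamous markers was 119 to 131 CPM in siGLUT2 and 139.9 to 159 CPM in scr libraries, with 6 at 0 throughout, and that of the macrophage and leukocyte markers 28.1 to 29.7 CPM and 14.8 to 19.4 CPM, with 5 at 0. Their part in the vitamin D genes' levels was not tested.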
